A study of Rattus norvegicus with 25 samples.

Results

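The miRNAs of the imprinted Dlk1-Dio3 locus were examined in the small RNA of mature sperm from F0 Sprague-Dawley males. Members were the rows of the deposited miRNA count table whose number is one of 39 numbers known from this locus, with any letter or arm, and 64 of the 562 rows met this rule. The 64 rows came from 40 hairpins, 24 of which had a row for each arm, and 37 of the 39 numbers had a row. The study asked whether intravenous morphine self-administration, and abstinence after it, changes the small RNA that sperm carry. F0_SAL males (n = 7) took saline and F0_MOR males (n = 7) took morphine, and their sperm was collected when self-administration ended. F0_ABS-SAL males (n = 5) and F0_ABS-MOR males (n = 6) went through the same saline or morphine exposure and then 90 days without it before collection. All groups underwent the intravenous procedure, and none was left untreated. Abstinent males were collected later, so abstinence and the age or time that passed with it cannot be told apart.

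The Dlk1-Dio3 locus is controlled by parental imprinting. The paternal chromosome expresses the protein-coding genes Dlk1, Rtl1 and Dio3, and the maternal chromosome expresses long noncoding RNAs, among them Meg3, an RNA antisense to Rtl1, and Mirg, from which the miRNAs and many small nucleolar RNAs are cut. The control region of the locus is methylated in sperm, and the methylated copy keeps the miRNA-bearing RNAs silent after fertilization. The miRNAs are best known from brain, skeletal muscle, placenta and stem cells. miR-127, miR-136, miR-434, miR-431 and miR-433 are antisense to Rtl1, the gene of a retrotransposon-derived placental protein, and the arms that match it fully can cut its mRNA. The long array from miR-379 to miR-410 includes miR-134, which acts at neuronal dendrites.

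Mature sequences are shown for the members on which the results turn, the most abundant or called ones and a near-identical neighbour. Capitals mark the seed, bases 2 to 8 from the 5′ end, which sets most of the targets of a miRNA. The sequences are those of RefSeq on the rat build GRCr8, which held 62 of the 64 members and placed all 62 on chromosome 6, 61 of them on the plus strand.
rno-miR-127-3p: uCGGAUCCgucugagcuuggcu
rno-miR-434-3p: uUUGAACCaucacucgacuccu
rno-miR-434-5p: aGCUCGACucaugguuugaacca
rno-miR-379-5p: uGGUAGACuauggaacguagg
rno-miR-411-5p: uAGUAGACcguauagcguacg
rno-miR-409a-5p: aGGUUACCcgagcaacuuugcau
rno-miR-494-3p: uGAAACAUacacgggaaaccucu
rno-miR-300-3p: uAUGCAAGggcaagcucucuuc
rno-miR-381-3p: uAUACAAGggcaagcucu

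The seeds of the neighbouring miR-379-5p and miR-411-5p differed by the substitution G2A, counted from the 5′ end of miR-379-5p. Among the 62 members with a RefSeq sequence, 2 seeds were shared, AUACAAG by miR-381-3p and miR-539-3p and AUGUGGG by miR-299a-3p and miR-299b-3p. miR-300-3p and miR-381-3p differed by the substitution G4A over the 18 bases compared, and miR-379-3p and miR-411-3p by 1 mismatch where they overlap. The authors' alignment allowed a mismatch, so the split of reads within these 2 pairs is uncertain.

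Libraries held 1032386 to 3203211 miRNA counts, of which 685 to 3199 were counts of members. Columns of the table were tied to groups and not to single animals, so libraries are named here by their column letters. The libraries carried the miRNAs known from male germ cells, with rno-miR-34c-5p alone taking 43.3% ± 6.86 (SD, n = 7) of miRNA counts in F0_SAL, 39.0% ± 4.36 (n = 7) in F0_MOR, 33.8% ± 6.13 (n = 5) in F0_ABS-SAL and 34.2% ± 9.79 (n = 6) in F0_ABS-MOR. Library R of F0_ABS-SAL stood apart in the muscle miRNA list, which summed to 81492 CPM (counts scaled to a common library size). The other 4 libraries of its group had 17549 to 28779 CPM. Nearly all of the sum in R was rno-miR-143-3p, at 80850.5 CPM. R also had the highest epithelium sum of its group (19413 CPM, beside 12476 in library E). It was not the highest in the endothelial sum (1789 CPM, beside 2821 in library L) or the leukocyte sum (2109 CPM, beside 2698 in library E). The germ cell and sperm sum of R was the lowest of the group (285699 CPM, beside 296027 in library E). In a bulk sample, fewer cells of a type and less RNA per cell cannot be told apart.

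Members together were a small share of sperm miRNA. The summed share was 0.0565% ± 0.0270 (SD, n = 7) of miRNA counts in F0_SAL, with a lowest library of 0.0301%, a median of 0.0403% and a highest of 0.101%. In F0_MOR it was 0.0687% ± 0.0197 (n = 7), from 0.0481% through a median of 0.0660% to 0.0949%. All F0_MOR shares lay within the range of F0_SAL, while F0_SAL libraries O, W, V and F (0.0301% to 0.0403%) lay below every F0_MOR library. The ratio of geometric means, F0_MOR over F0_SAL, was 1.29, a log2 ratio of 0.37 beside a pooled log2 SD of 0.55 between libraries. With single libraries left out, this log2 ratio ran from 0.24 to 0.53.

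The share was higher after abstinence in mean, with overlapping libraries. The 5 F0_ABS-SAL libraries had 0.0629% (E), 0.0912% (K), 0.0942% (Y), 0.127% (L) and 0.151% (R), a mean of 0.105% ± 0.0344. The 6 F0_ABS-MOR libraries ran from 0.0581% through a median of 0.108% to 0.139%, with a mean of 0.104% ± 0.0305. Of the abstinent libraries, 2 of 5 in F0_ABS-SAL lay above every F0_SAL library and 4 of 6 in F0_ABS-MOR above every F0_MOR library. The ratio of geometric means was 1.96 for F0_ABS-SAL over F0_SAL, a log2 ratio of 0.97 beside a pooled log2 SD of 0.60 between libraries. It was 1.51 for F0_ABS-MOR over F0_MOR, a log2 ratio of 0.59 beside a pooled SD of 0.44. Scaled by TMM (trimmed mean of M values) library sizes, which discount a few very abundant miRNAs, the log2 ratios were 0.59 and 0.40. The log2 ratio of F0_MOR to F0_SAL was then 0.17. No test was run on the sum. Counting error was small beside these differences, the widest 95% Wilson interval of a library's share being 7.50% of the share to either side.

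**Figure D1:**
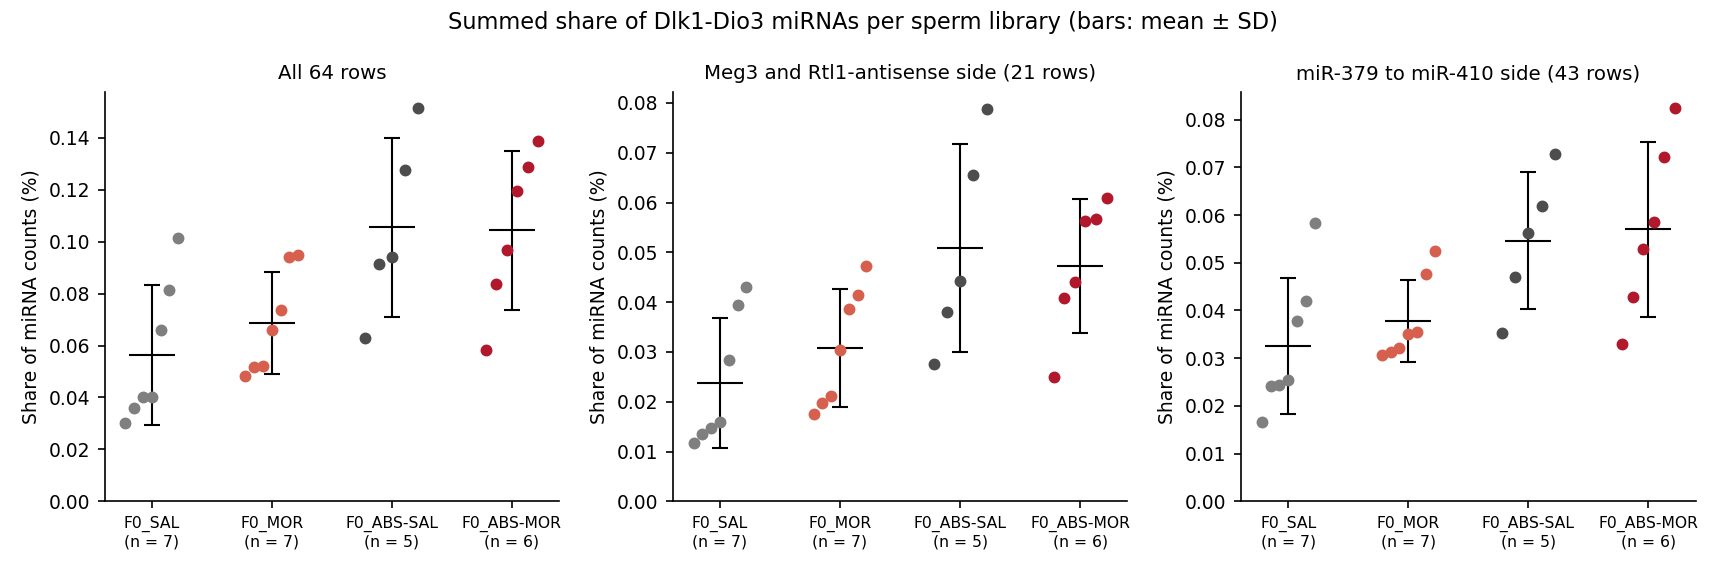
Summed share of miRNA counts (%, y axis) of all 64 Dlk1-Dio3 rows, of the 21 rows on the Meg3 and Rtl1-antisense side and of the 43 rows from miR-379 to miR-410, by group. Each point is a library and the bars are mean ± SD; the abstinent means (0.105% and 0.104%) lie above the nonabstinent ones (0.0565% and 0.0687%), and the ranges overlap.

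Both sides of the locus contributed, the array from miR-379 to miR-410 with the larger mean in every group. Rows on the Meg3 and Rtl1-antisense side summed to 0.0238% ± 0.0131 (n = 7) in F0_SAL and 0.0508% ± 0.0209 (n = 5) in F0_ABS-SAL, and to 0.0309% ± 0.0118 (n = 7) in F0_MOR and 0.0473% ± 0.0135 (n = 6) in F0_ABS-MOR. Rows from miR-379 to miR-410 summed to 0.0327% ± 0.0143 and 0.0546% ± 0.0143 in the saline groups, and to 0.0378% ± 0.00867 and 0.0570% ± 0.0183 in the morphine groups.

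Most members were sparse. All 25 libraries had counts for 15 of the 64 rows, 20 rows were detected in 13 to 24 libraries, 21 rows in 2 to 12 libraries and 8 rows in 1 library. A library had 33.3 ± 3.35 (SD, n = 7) member rows with counts in F0_SAL and 34.6 ± 3.21 (n = 7) in F0_MOR, against 41.0 ± 2.92 (n = 5) in F0_ABS-SAL and 40.7 ± 3.33 (n = 6) in F0_ABS-MOR. Depth differed between the libraries, and at the depth of the shallowest library the expected numbers were 31.5, 33.7, 38.5 and 38.7 in the same order. Rows with 10 or more counts numbered 14.9, 14.1, 22.8 and 19.8 per library.

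Levels were uneven along the locus. On the Meg3 and Rtl1-antisense side, the first hairpins from miR-770 to miR-433 had mean levels of at most 5.91 TMM-scaled CPM, and miR-127 then reached 195 CPM in the 14 nonabstinent libraries and 305 CPM in the 11 abstinent ones. Its neighbours miR-434 and miR-136 followed with 53.6 and 24.6 CPM in nonabstinent and 69.0 and 34.8 CPM in abstinent libraries. The second maximum was at the start of the other array, where miR-379 had 180 CPM in nonabstinent and 249 CPM in abstinent libraries and miR-411 had 51.0 and 89.2 CPM. Beyond these, miR-323, miR-300, miR-382, miR-541 and miR-369 had 11.1 to 24.5 CPM in both. miR-127-3p made up 28.5% ± 6.56 (SD, n = 25) of member counts in a library and ranked 112 of the 562 rows by level, and miR-379-5p ranked 116.

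**Figure D2:**
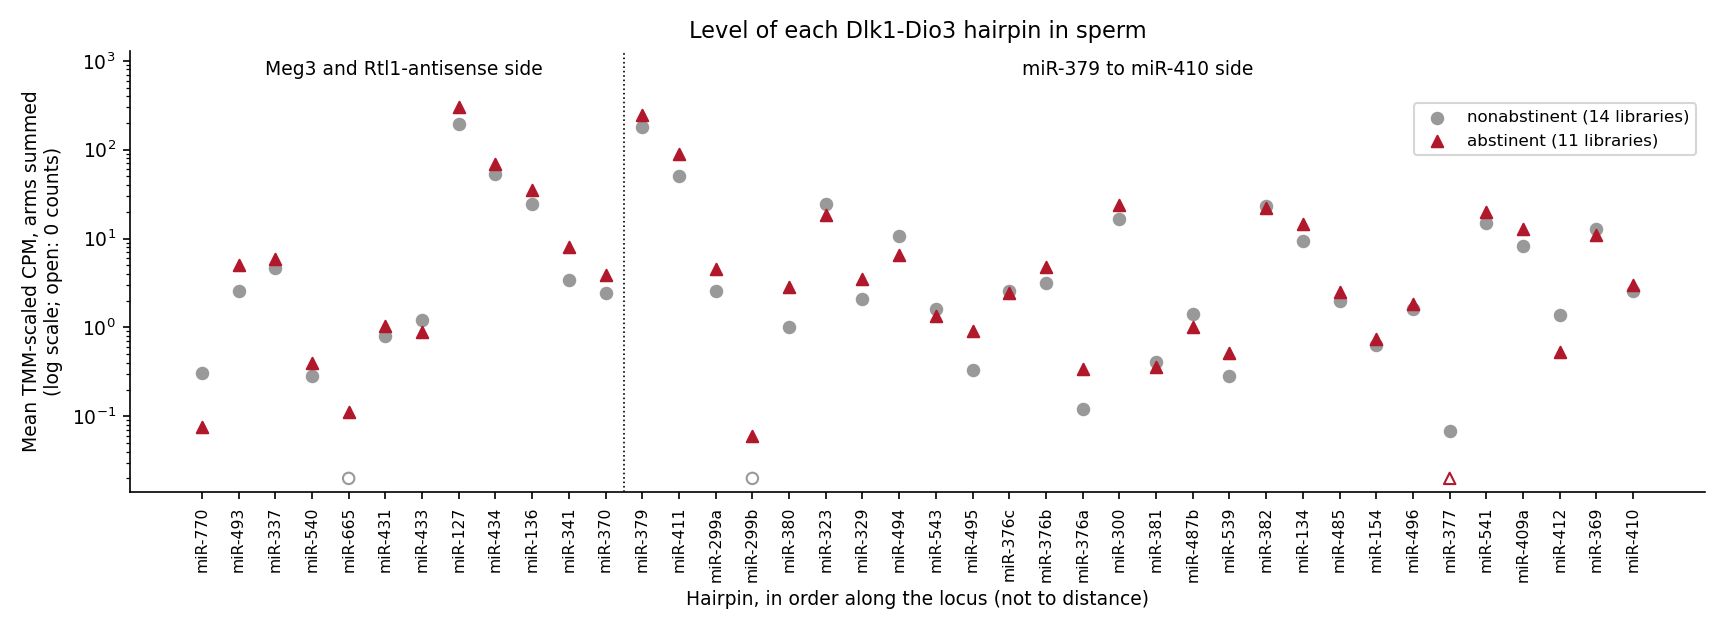
Mean level of each of the 40 member hairpins (TMM-scaled CPM with arms summed, log y axis) in their order along the locus (x axis, not to distance), in 14 nonabstinent (circles) and 11 abstinent (triangles) libraries; open symbols mark hairpins with no counts. The highest levels are at miR-127 (195 and 305 CPM) and at miR-379 (180 and 249 CPM), and miR-494 and miR-323 are among those that are lower in abstinent libraries.

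One arm of a hairpin usually dominated. The 3p arm held 96.4% of miR-127 counts, 88.4% of miR-136 counts and 79.1% of miR-434 counts summed over libraries, so on the Rtl1-antisense side the 3p arm prevailed in these 3 hairpins. In the other array the 5p arm prevailed at its start, with the 3p arm at 0.957% of miR-379 and 5.69% of miR-411 counts. miR-541 was likewise a 5p miRNA with 0.241% of counts in its 3p arm, which had 2 counts in 1 library and none in the others. The arms of miR-382 were nearly balanced, at 56.0% for 3p. The minor arms miR-127-5p, miR-136-5p, miR-379-3p and miR-299a-5p had at most 56, 25, 13 and 4 counts in any library.

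The edgeR quasi-likelihood test was run on all miRNAs that passed a filter on low counts, 22 of the 64 members and 317 of the 562 rows. The 22 held 95.1% ± 0.930 (SD, n = 25) of member counts. The other 42 members were tested only in the alternatives that used no such filter, and since a sparse row can pass the filter through 1 group in which it is high, the counts over the 22 describe these rows and not all members. A miRNA was called at a Benjamini-Hochberg adjusted p under 0.1, taken over all 317, with an absolute log2 fold change above 0.58.

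After saline, abstinence went with higher levels of 3 members and lower levels of none. F0_ABS-SAL against F0_SAL called miR-127-3p, miR-411-5p and miR-409a-5p higher, 3 of 22 tested members (13.6%), where 22.4% of all tested miRNAs were called higher, 10.7% lower and 33.1% in either direction. The called share of the members was thus below that of all miRNAs, while 19 of 22 members had a log2 fold change above 0 against 50.2% of all miRNAs. The median log2 fold change was 0.49 over the 22 members and 0.00 over all 317.

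miR-127-3p, which is antisense to Rtl1, had a lowest, median and highest level of 86.0, 114 and 310 CPM in F0_SAL. The F0_ABS-SAL libraries had 139 (E), 228 (K), 241 (Y), 379.2 (L) and 629 CPM (R), so 2 of them exceeded all F0_SAL libraries and the groups overlapped. The log2 fold change was 0.95 ± 0.36 (SE) with an adjusted p of 0.0499. Without library R it was 0.56 with an adjusted p of 0.261 and miR-127-3p was not called.

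miR-411-5p ran from 34.2 through a median of 45.6 to 81.0 CPM in F0_SAL. In F0_ABS-SAL it had 60.3 (E), 70.0 (L), 70.2 (K), 91.2 (R) and 121 CPM (Y), all above the F0_SAL median, with 1 F0_SAL library inside their range. The log2 fold change was 0.75 ± 0.26 with an adjusted p of 0.0319, and without library Y the adjusted p was 0.108.

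miR-409a-5p, from the far end of the array, was sparse, with 0, 3.40 and 5.49 CPM as lowest, median and highest in F0_SAL. The F0_ABS-SAL libraries had 4.13 (K), 4.23 (E), 7.02 (R), 7.23 (L) and 8.63 CPM (Y), which came from 8 to 27 counts. The log2 fold change was 1.31 ± 0.59 with an adjusted p of 0.0878. The call was lost without any 1 of libraries C, F, O and W (F0_SAL), A, B and G (F0_MOR) or L, R and Y (F0_ABS-SAL), with adjusted p-values up to 0.181. It was also lost with DESeq2 in place of edgeR and with no filter on low counts, with adjusted p-values up to 0.166.

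miR-379-5p, the second most abundant member, did not pass. It had 95.6, 149 and 327 CPM as lowest, median and highest in F0_SAL and 120 (E), 202.97 (K), 238 (Y), 254 (L) and 387 CPM (R) in F0_ABS-SAL, with a log2 fold change of 0.49 ± 0.27 and an adjusted p of 0.156. It was called without library P (F0_SAL) or library E (F0_ABS-SAL). The same held in 3 of 7 other settings: total count alone, at least 10 counts in every library, and log2 total count as a covariate. Of the 22 members, 3 had a log2 fold change below 0, namely miR-494-3p (-0.66 ± 0.36), miR-323-3p (-0.62 ± 0.36) and miR-369-3p (-0.28 ± 0.38), none of them called.

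After morphine, 2 members were called higher after abstinence and none lower. F0_ABS-MOR against F0_MOR called miR-411-5p and miR-434-5p, 9.09% of the 22, where 11% of all tested miRNAs were called higher, 10.1% lower and 21.1% in either direction. The log2 fold change was above 0 in 17 of 22 members and in 50.5% of all miRNAs, with medians of 0.51 and 0.00.

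miR-411-5p had a lowest, median and highest level of 32.6, 41.7 and 75.5 CPM in F0_MOR and of 58.4, 66.7 and 139 CPM in F0_ABS-MOR. All F0_ABS-MOR libraries lay above all but 1 of the F0_MOR libraries. The log2 fold change was 0.87 ± 0.25 with an adjusted p of 0.0179, and it was called whichever of the 25 libraries was left out.

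miR-434-5p, the minor arm of its hairpin, had 0, 7.24 and 13.8 CPM in F0_MOR, where 1 library held no count, against 12.7, 17.1 and 20.1 CPM after abstinence. The groups overlapped by the highest F0_MOR library. The log2 fold change was 1.08 ± 0.40 with an adjusted p of 0.0618, again called whichever library was left out. The major arm miR-434-3p had 37.7, 45.2 and 64.3 CPM in F0_MOR and 37.0, 54.9 and 69.3 CPM after abstinence, with a log2 fold change of 0.10 ± 0.21 with an adjusted p of 0.796. After saline the log2 fold changes were 0.62 ± 0.41 for miR-434-5p and 0.41 ± 0.22 for miR-434-3p, neither of them called. The difference between the arms was not tested.

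miR-127-3p had a smaller log2 fold change after morphine, 0.39 ± 0.35 with an adjusted p of 0.474, at 103.9, 218 and 334 CPM in F0_MOR and 165, 272 and 367 CPM in F0_ABS-MOR. Over 7 other settings this fold change ran from 0.40 to 0.80. In 1 of these, with log2 total count as a covariate, miR-127-3p was called. The test of the difference between its saline and morphine fold changes gave 0.57 ± 0.51 with an adjusted p of 0.953. miR-379-5p had 154.3, 178 and 237 CPM in F0_MOR and 153, 254 and 349 CPM after abstinence, with a log2 fold change of 0.43 ± 0.26 with an adjusted p of 0.236. With log2 total count as a covariate it was called too.

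**Figure D3:**
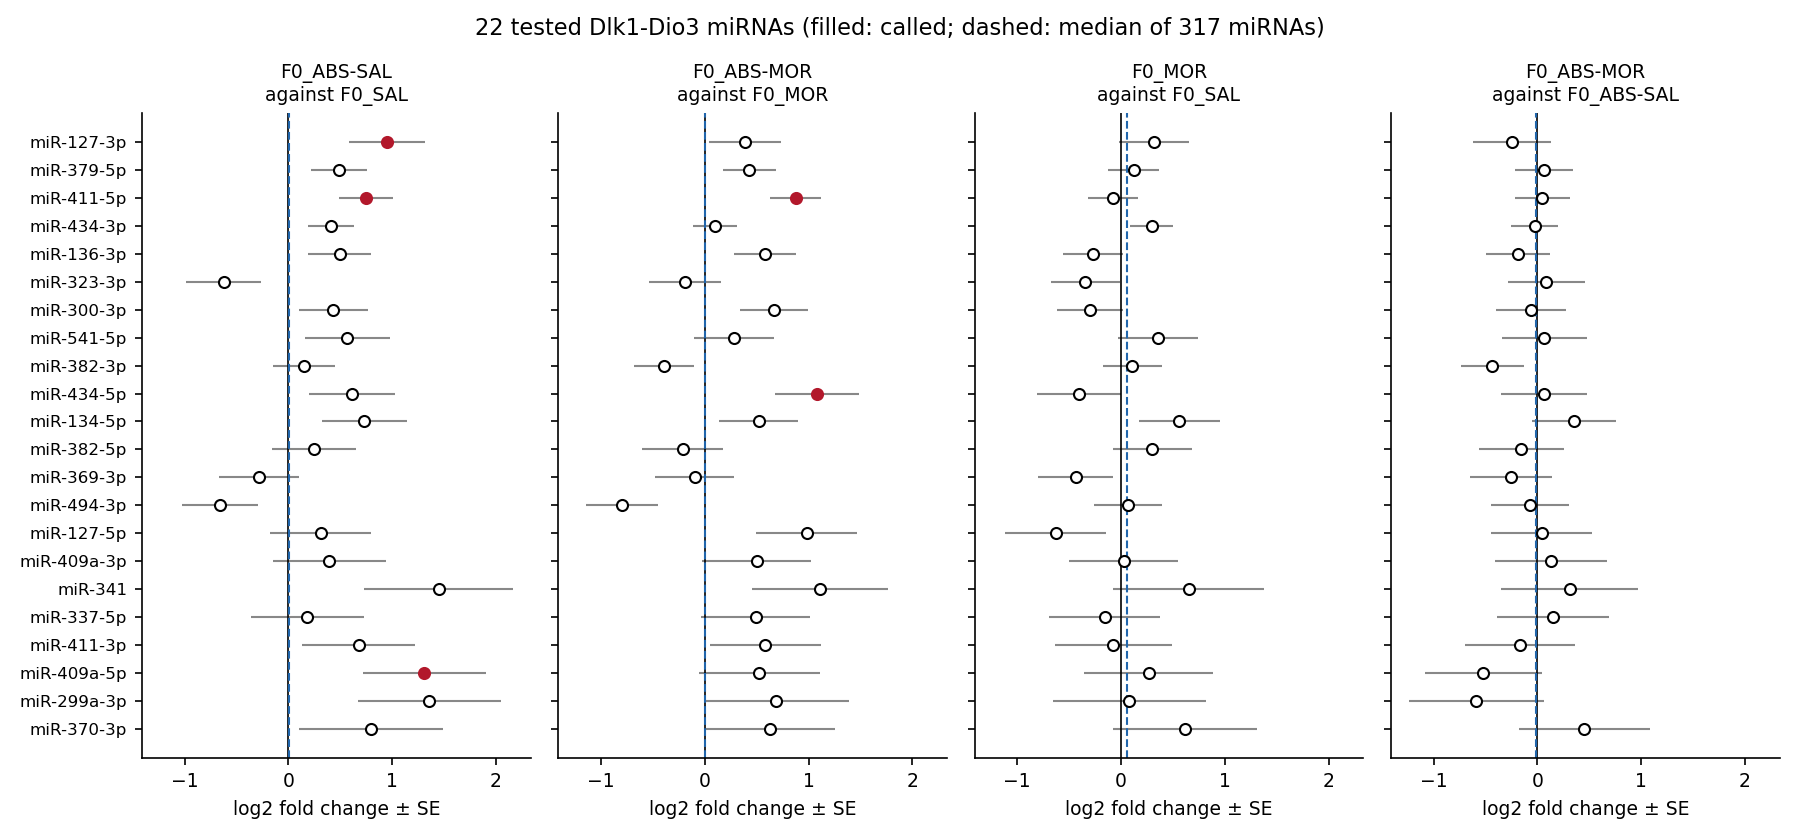
Log2 fold change ± SE (x axis) of the 22 tested members in the 4 pairwise comparisons; filled points were called and the dashed line is the median of all 317 tested miRNAs. Called members are miR-127-3p, miR-411-5p and miR-409a-5p after saline and miR-411-5p and miR-434-5p after morphine, and none was called between treatments.

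Averaged over both treatments, abstinence went with higher levels of 7 of 22 tested members (31.8%) and a lower level of 1 (4.55%). Of all tested miRNAs, 22.7% were called higher, 12% lower and 34.7% in either direction. The called share of the members in either direction, 36.4%, was thus near that of all miRNAs. On the Meg3 and Rtl1-antisense side miR-127-3p (log2 fold change 0.67 ± 0.25, adjusted p = 0.0317), miR-434-5p (0.85 ± 0.29, adjusted p = 0.0176) and miR-341 (1.28 ± 0.49, adjusted p = 0.0328) were called. From the other array miR-411-5p (0.81 ± 0.18, adjusted p = 0.000696), miR-134-5p (0.63 ± 0.28, adjusted p = 0.0655), miR-409a-5p (0.92 ± 0.42, adjusted p = 0.0691) and miR-299a-3p (1.02 ± 0.49, adjusted p = 0.0843) were called. This contrast uses the same libraries as the pairwise ones and does not repeat them independently. miR-411-5p, miR-434-5p, miR-341 and miR-494-3p were called whichever of the 25 libraries was left out, but miR-341 was not called with log2 total count as a covariate (adjusted p = 0.109). The call was lost for miR-127-3p without library R (log2 fold change 0.48), for miR-134-5p in 8 such fits, for miR-299a-3p in 12 and for miR-409a-5p in 6. With no filter on low counts miR-299a-3p and miR-409a-5p were not called, nor was miR-299a-3p with DESeq2. The number of members called was 4 without library R and 5 without library L (both F0_ABS-SAL) or library D (F0_ABS-MOR).

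miR-494-3p was the member called lower, at a log2 fold change of -0.73 ± 0.25 with an adjusted p of 0.0192. Its lowest, median and highest levels were 5.63, 8.87 and 14.8 CPM in F0_SAL and 5.79, 10.5 and 14.9 CPM in F0_MOR. The F0_ABS-SAL libraries had 5.44 (Y), 6.75 (K), 6.88 (E), 6.90 (L) and 7.02 CPM (R), and F0_ABS-MOR had 1.63, 6.78 and 9.48 CPM. No abstinent library exceeded 9.48 CPM, whereas nonabstinent ones reached 14.9 CPM, and the abstinent values came from 4 to 21 counts. With library sizes taken from the total count alone, it had a log2 fold change of -0.45 and an adjusted p of 0.160 and was not called.

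The sparse miR-341, in the Meg3-side group, had 0, 3.17 and 5.96 CPM in F0_SAL and 0, 4.52 and 6.82 CPM in F0_MOR. In F0_ABS-SAL it had 1.59 (E), 2.24 (Y), 4.01 (R), 13.5 (K) and 14.5 CPM (L), and in F0_ABS-MOR 1.41, 6.43 and 21.6 CPM. Of the abstinent libraries, 4 had 13.5 CPM or more, and the others had at most 6.97 CPM, beside a nonabstinent maximum of 6.82 CPM.

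miR-134-5p, the dendritic regulator, had 3.56, 7.22 and 13.6 CPM in F0_SAL, 2.83, 12.8 and 16.3 CPM in F0_MOR, and 4.22, 15.4 and 24.4 CPM in F0_ABS-MOR. The F0_ABS-SAL libraries had 5.29 (E), 9.004 (K), 14.04 (R), 16.6 (Y) and 17.7 CPM (L). miR-299a-3p had medians of 1.27, 1.51, 5.12 and 3.72 CPM in F0_SAL, F0_MOR, F0_ABS-SAL and F0_ABS-MOR, with at most 23 counts in any library.

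A further 3 members had an adjusted p under 0.1 with a log2 fold change under 0.58, namely miR-379-5p (0.46 ± 0.18, adjusted p = 0.0426), miR-136-3p (0.54 ± 0.21, adjusted p = 0.0385) and miR-300-3p (0.55 ± 0.23, adjusted p = 0.0511). miR-136-3p, another Rtl1-antisense miRNA, had medians of 23.4, 18.4, 33.4 and 25.6 CPM in F0_SAL, F0_MOR, F0_ABS-SAL and F0_ABS-MOR. miR-300-3p had medians of 18.8, 14.5, 24.97 and 18.2 CPM, on reads that may be shared with miR-381-3p.

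**Figure D4:**
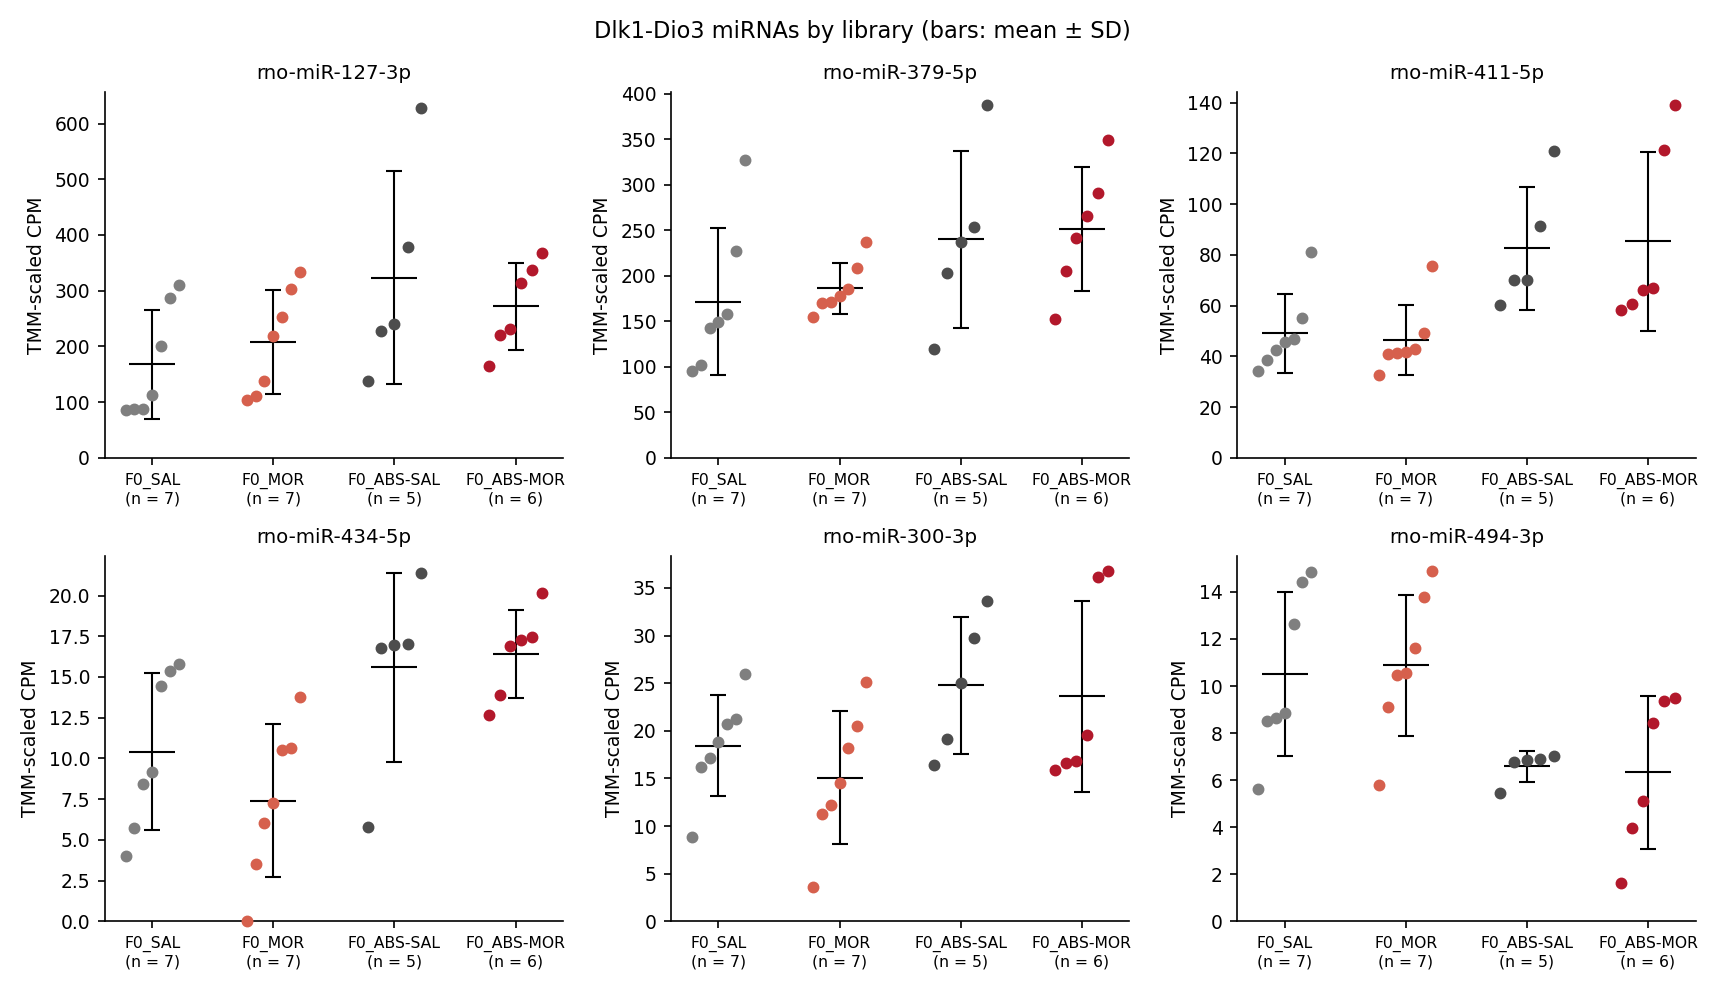
Level (TMM-scaled CPM, y axis) of 6 members in each library by group, with mean ± SD. miR-127-3p, miR-379-5p, miR-411-5p, miR-434-5p and miR-300-3p have higher means in abstinent groups and miR-494-3p lower ones, and all groups overlap.

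Library scaling touched these calls. With the total count in place of TMM, the median log2 fold change of all tested miRNAs was 0.39 after saline, 0.18 after morphine and 0.26 on average, and 10, 5 and 13 members were called, all of them higher. Calls over all miRNAs then split 110 higher to 1 lower, 57 to 14 and 111 to 7, against 71 to 34, 35 to 32 and 72 to 38 with TMM. Beside these shifts the member medians were 0.83, 0.72 and 0.83 with the total count and 0.49, 0.51 and 0.54 with TMM. No member's groups failed to overlap in any pairwise comparison, where 6.94% of all tested miRNAs had groups that did not overlap after saline and 3.47% after morphine.

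No tested member was called between morphine and saline. F0_MOR against F0_SAL called 0 of 22 members, and 0% of all tested miRNAs, with edgeR. DESeq2 also called 0 miRNAs here. The paper, which used DESeq2, reported rno-miR-150-5p, not a member, as differentially expressed in this comparison. None of the 22 had an unadjusted p under 0.05 with edgeR, where 7.26% of all tested miRNAs had, and 1 of 64 members had with DESeq2. Member log2 fold changes ran from -0.63 to 0.65 with a median of 0.08, and the SEs of the abundant members were 0.34 for miR-127-3p, 0.25 for miR-379-5p and 0.24 for miR-411-5p. F0_ABS-MOR against F0_ABS-SAL likewise called 0 of 22 and 0% of all, with none of the members at an unadjusted p under 0.05 by edgeR or DESeq2 (1.26% of all tested miRNAs by edgeR). Log2 fold changes there ran from -0.59 to 0.45 with a median of 0.01, and were -0.25 ± 0.38 for miR-127-3p, 0.06 ± 0.28 for miR-379-5p and 0.05 ± 0.27 for miR-411-5p. The treatment contrast averaged over timepoints and the interaction of treatment with timepoint called 0 of 22 members and 0% of all. At an unadjusted p under 0.05 edgeR gave no member in either, where 1.89% and 3.15% of all tested miRNAs passed, and DESeq2 gave 1 and 0 members. With SEs of this size these values do not show that the treatments acted alike.

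Markers of other cell types moved with timepoint too. The germ cell and sperm list (10 miRNAs, all tested) summed to 421574 to 766726 CPM in F0_SAL, 347275 to 526472 in F0_MOR, 285699 to 410310 in F0_ABS-SAL and 197765 to 450751 in F0_ABS-MOR, with 4 of 10 called lower after saline and 0 after morphine. Most of this sum was rno-miR-34c-5p, with means of 516559, 399947, 303452 and 310756 CPM in the same order. The endothelial list (2 miRNAs) summed to 546 to 783, 584 to 733, 708 to 2821 and 1036 to 1457 CPM in the same order, with both called higher after saline and after morphine. The muscle list (6 miRNAs, 4 tested) summed to 13603 to 16720, 13027 to 17617, 17549 to 81492 and 15623 to 36214 CPM, nearly all of it miR-143-3p of smooth muscle and fibroblasts (means of 15226, 14682, 32677 and 24103 CPM), with 3 of 4 called higher after saline and 1 after morphine. The epithelium list (7 miRNAs) summed to 7311 to 11638, 8234 to 11809, 9183 to 19413 and 9356 to 17572 CPM, with 4 and 2 called higher. Leukocyte miRNAs (6) had 1 and 1 called higher and 0 and 1 lower, erythroid miRNAs (3 of 4 with a row) 0 and 3 called lower, and neural miRNAs (5) 1 and 1 called lower. The skeletal muscle miRNAs rno-miR-206-3p and rno-miR-133b-3p were at 0 counts in 11 and 21 of 25 libraries and had at most 8 and 5 counts, and rno-miR-155-5p, rno-miR-1-3p and rno-miR-133a-3p were at 0 in 1 library each. No other listed marker with a row was at 0 in any library. The part of these cell types in the member levels was not tested.

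Correlations between members from library to library were mostly weak and positive. After removal of group means, Spearman correlations of log2 CPM over the 25 libraries had a median of 0.23 over the 226 pairs of tested members from different hairpins, 176 of them positive. Pairs of a member and another miRNA had a median of 0.02 and pairs of other miRNAs 0.01. Among the 11 members with a mean of at least 20 counts, the median was 0.34. All these correlations share the same libraries, depths and scaling and are given as a description.

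The strongest pair joined the 2 sides of the locus, miR-127-3p with miR-379-5p at 0.81. miR-341 with miR-127-5p (0.72), miR-136-3p with miR-300-3p (0.70) and miR-127-3p with miR-382-5p (0.70) came next. The median was 0.18 within the Meg3 and Rtl1-antisense side, 0.24 within the array from miR-379 to miR-410 and 0.24 between the sides, and 0.28 for the 5 pairs of arms from 1 hairpin. miR-379-5p had the highest median correlation with the other members (0.49), followed by miR-541-5p (0.44) and miR-134-5p (0.41). miR-494-3p, miR-369-3p and miR-127-5p had the lowest, each 0.03. miR-323-3p and miR-127-5p formed the most negative pair at -0.61.

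**Figure D5:**
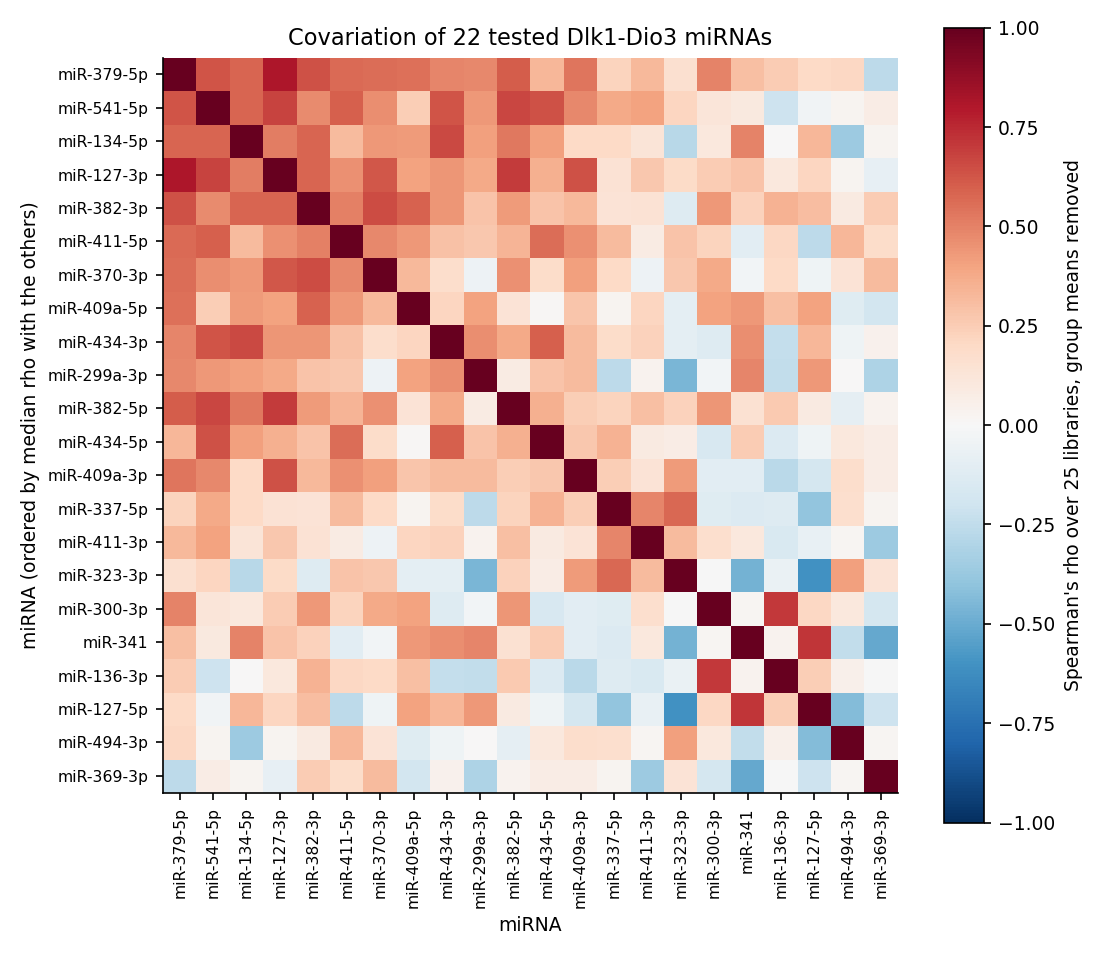
Spearman's rho (colour) between the 22 tested members over 25 libraries with group means removed, members ordered by their median rho with the others. miR-379-5p, miR-541-5p, miR-134-5p and miR-127-3p form a block of positive values that reaches 0.81, and miR-494-3p and miR-369-3p have both positive and negative values, with medians of 0.03.

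The summed member level also tracked miRNAs outside the locus. Those most like it over the 25 libraries, group means removed, were rno-let-7b-5p (rho 0.77), rno-let-7c-5p (0.74), rno-miR-150-5p (0.73), rno-let-7e-5p (0.71) and rno-miR-125b-2-3p (0.71). Against marker lists its rho was -0.59 for germ cell and sperm, 0.45 for epithelium, 0.35 for muscle, 0.31 for leukocyte, 0.13 for endothelial, 0.05 for neural and -0.02 for erythroid miRNAs. The summed share had a rho of -0.53 with log2 total miRNA count and of -0.46 with the share of rno-miR-34c-5p. That miRNA made up most of the germ cell and sperm sum, so its rho and that of the list are not separate observations. These values rest on shared libraries, and depth was not separated from composition.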

How the data were processed

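Sperm was purified by double swim-up from the cauda epididymis. The authors prepared small RNA libraries from 25 F0 males with the NEBNext kit, took forward Illumina reads, and with sRNAbench trimmed adaptors, aligned to the rat genome (rn6) with a mismatch allowed and annotated first to miRBase and then to Ensembl ncRNAs. The deposited values are raw counts per mature miRNA (562 rows) and per ncRNA (3804 rows), whose smallest value above 0 was 2. The ncRNA counts served only as an alternative denominator. No label expands the column tags REG and TO, which were matched to nonabstinent and abstinent groups by group size, and no column was tied to an animal. Replicates are biological per the labels. Members and lists were chosen with earlier results of these data known.

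Counts were tested with edgeR 4.0.16 (R 4.3.3) by the quasi-likelihood test, with TMM factors, filterByExpr over the 4 groups and 1 model of all 25 libraries. Adjusted p-values are Benjamini-Hochberg values over 317 miRNAs. The SE is the log2 fold change divided by the square root of F, an approximation. CPM are TMM-scaled, and log2 CPM used a prior count of 2. Correlations used pandas 2.3.3, and Wilson intervals used scipy 1.17.1. Only the edgeR fit was tested on simulated data, in the comparison of F0_ABS-SAL against F0_SAL. Members named are the 8 with the highest level, those called, the 2 with the smallest p in each contrast and the other arms of these hairpins; other members are named where a range, pair or extreme falls on them, chosen after their values were seen. Alternatives were DESeq2 1.42.0, its size factors, total count alone, other count filters, only the groups compared, stricter adjusted p, total count as a covariate, other denominators, and each library left out. Wilson intervals cover counting error only.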

Additional observations from a re-analysis of the deposited data

Results flagged for a closer look

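Of 84 groups of values examined for a single library far from the rest by Dixon's criterion, 7 had one, where chance gives 4.2, about 1 in 20. In F0_SAL, library P had 40 member rows with counts, library H had a low log2 CPM of miR-136-3p (4.03) and library O a low log2 CPM of miR-323-3p (3.42). In F0_ABS-SAL, library E was low in miR-434-5p (log2 CPM 2.78) and library Y in miR-494-3p (2.69). In F0_ABS-MOR, library S was low in both miR-134-5p (log2 CPM 2.39) and miR-409a-5p (0.052). The latter value reflects 0 counts and the prior count alone. Library S also had the lowest summed member share of its group, 0.0581%.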

How the results depend on the processing

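No called member changed direction in a comparison that called it. Values near 0 that were not called did change sign: without single libraries, the log2 ratio of summed shares of F0_ABS-MOR to F0_ABS-SAL ran from -0.18 to 0.15 and the fold change of rno-miR-127-3p there from -0.39 to 0.11, the member median of F0_MOR against F0_SAL was -0.13 without library O, and rno-miR-369-3p after saline ran from -0.34 to 0.09 over the other settings. After saline, 10 members were called with total count alone and 6 with log2 total count as a covariate, against 3, and leaving out single libraries gave 1 to 6 (1 without R, 5 without H or V, 6 without E). After morphine, 5 were called with total count alone, 4 with the covariate and 1 at an adjusted p under 0.05, against 2, and leaving out single libraries gave 2 to 4 (4 without T, S or X). Averaged over treatments, 13 were called with total count alone, 3 with at least 10 counts in every library and 5 at an adjusted p under 0.05, against 8, and leaving out single libraries gave 4 to 10. Requiring 10 counts lowered the rows detected per library to 14.9 and 14.1 for nonabstinent saline and morphine males and 22.8 and 19.8 for abstinent ones. The other 296 values of this kind, among them the summed shares under 5 other definitions and the median correlation under 5, stayed within their tolerance, and of the single-member values 2844 kept their side of the threshold, 60 passed it and 46 no longer did. The log2 ratio of summed shares without single libraries was 0.82 to 1.14 after saline and 0.50 to 0.75 after morphine. Causes were not tested. No paired analysis was possible because the columns carry none of the replicate numbers of the labels. Depth limits the sparse members, 42 of which did not pass the filter on low counts.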

Other observations

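RefSeq placed 98 mature miRNAs between the outermost member hairpins, and 30 of them had no row in the table. A further 6 with a row fall outside the member numbers, namely miR-1193-3p, miR-6331, both arms of miR-667 and both arms of miR-673. None had more than 6 counts in any library, and none was tested. miR-6331 was detected in 9 of 25 libraries and miR-667-3p, miR-673-3p and miR-673-5p in 1 each.

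Lowest in correlation with the summed member level were rno-miR-471-5p (rho -0.73), rno-miR-19a-3p (-0.72) and rno-miR-32-5p (-0.71), over 25 libraries with group means removed. They were named after their values were seen.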
